A study of Homo sapiens with 7 samples.

Results

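The genes described are 10 integrin subunits, 5 alpha (ITGA2, ITGA3, ITGA5, ITGA6 and ITGAV) and 5 beta (ITGB1, ITGB3, ITGB4, ITGB5 and ITGB8), out of 57773 rows of the gene count table. They were chosen by symbol. The 10 symbols fill 11 rows, because ITGB3 has a row with counts (ENSG00000259207) and a row at 0 in all 5 libraries (ENSG00000259753), which was not tested. All 10 subunits passed the filter on low counts. The cells are MDA-MB-231, a human cell line from a breast carcinoma without hormone receptors or HER2 amplification and of mesenchymal character. RNA-seq was made from 2 libraries labelled KD and 3 libraries labelled parent, and KD was compared with parent. The series concerns APE1, the DNA repair endonuclease encoded by APEX1, and its binding to G-quadruplexes, folds of guanine-rich DNA held together by stacked guanines. The labels do not spell out KD, name no agent or dose for either group, and do not say whether KD is a clone or a pool. Their protocol text, which is the same for each sample, describes TNBC cells lacking APE1 that were transduced to express APE1, wild type or mutant, under doxycycline control, and does not say which library came from such cells.

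Integrins are receptors made of 1 alpha and 1 beta chain that span the membrane and bind the extracellular matrix outside and the actin cytoskeleton inside. The alpha chain largely sets the ligand: ITGA2 pairs with ITGB1 to bind collagen, ITGA3 and ITGA6 pair with ITGB1 to bind laminin, and ITGA5 pairs with ITGB1 to bind fibronectin. ITGAV pairs with ITGB1, ITGB3, ITGB5 or ITGB8 and recognises the RGD motif of vitronectin, fibronectin and latent TGF-beta, while ITGA6 with ITGB4 anchors hemidesmosomes to laminin. In breast cancer cells integrins are studied for their part in adhesion, invasion and survival.

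Library totals were 14601078 to 18049386 counts. APEX1 had 640 and 753 counts in the KD libraries and 1936, 1936 and 2413 in the parent libraries, so the transcript of APE1 was lower in the libraries labelled KD (edgeR log2 fold change -1.51 ± 0.0727 SE, adjusted p = 5.87e-05). The 6 markers of the mesenchymal line were all detected, with a summed level of 6454 to 6542 CPM (counts scaled to library size with TMM factors) in KD and 7176 to 7656 CPM in parent. Of 8 luminal markers, ESR1 and FOXA1 were at 0 and PGR under 1 CPM, whereas KRT8, KRT19, GATA3, EPCAM and CDH1 were present in both groups, with sums of 948 to 973 CPM in KD and 860 to 910 CPM in parent. Of 6 fibroblast markers DCN was at 0 and 3 others were under 1 CPM, and PDGFRB and COL1A1 carried nearly all of a sum of 84.1 to 98.2 CPM in KD and 50.9 to 71.9 CPM in parent. Of the leukocyte markers, PTPRC, CD3E and LYZ were at 0, and CD14 gave 4.61 to 5.62 CPM in KD and 6.87 to 9.84 CPM in parent. The 3 endothelial and 4 embryonic kidney markers were each under 1 CPM. The part of these markers in the results was not tested. In bulk RNA, fewer cells with a transcript and less of it in each cell cannot be told apart.

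Of the 10 subunits, 4 were lower in KD and 0 were higher by edgeR's quasi-likelihood test (Benjamini-Hochberg adjusted over 16198 genes, threshold 0.05). Over all tested genes 21.5% were called, 12.4% lower and 9.15% higher in KD. The 4 were the collagen receptor chain ITGA2, the laminin receptor chains ITGA6 and ITGA3, and the shared beta chain ITGB1. The other 6 did not pass. These were the chains of RGD-binding receptors ITGA5, ITGAV, ITGB3, ITGB5 and ITGB8, together with the hemidesmosome chain ITGB4. The median log2 fold change of the 10 was -0.25, against 0.00085 over all tested genes. At an unadjusted p under 0.05, edgeR had 0 of the 10 higher, and DESeq2 called 0 higher.

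The RefSeq promoter windows of 3 of the subunits that fell and of 1 that did not pass are shown first, since the series asks about APE1 at guanine-rich DNA. Each window runs from 250 bases before to 50 bases after an annotated start, read 5′ to 3′ on the gene's strand, in build GRCh38.p14. Capitals mark 4 runs of GGG, or of CCC for the other strand, separated by 1 to 7 bases each, and, in ITGA5, also the AP-1 letters TGANTCA.
ITGA2 (chr5:52989102-52989401, plus strand): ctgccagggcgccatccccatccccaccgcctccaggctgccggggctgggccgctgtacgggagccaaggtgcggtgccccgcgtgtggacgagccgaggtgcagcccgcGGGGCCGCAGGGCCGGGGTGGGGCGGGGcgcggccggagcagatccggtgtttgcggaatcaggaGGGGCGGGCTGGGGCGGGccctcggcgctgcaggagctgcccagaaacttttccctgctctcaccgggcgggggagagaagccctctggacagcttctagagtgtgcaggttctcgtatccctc
ITGA6 (chr2:172427336-172427635, plus strand, the second of 2 windows): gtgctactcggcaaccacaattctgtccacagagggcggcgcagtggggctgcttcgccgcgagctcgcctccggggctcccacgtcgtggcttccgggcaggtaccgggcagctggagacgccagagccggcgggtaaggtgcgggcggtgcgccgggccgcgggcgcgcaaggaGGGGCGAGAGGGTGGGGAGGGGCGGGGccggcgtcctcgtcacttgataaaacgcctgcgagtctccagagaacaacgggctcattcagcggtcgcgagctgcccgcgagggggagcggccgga
ITGB1 (chr10:32958181-32958480, minus strand, the first of 2 windows): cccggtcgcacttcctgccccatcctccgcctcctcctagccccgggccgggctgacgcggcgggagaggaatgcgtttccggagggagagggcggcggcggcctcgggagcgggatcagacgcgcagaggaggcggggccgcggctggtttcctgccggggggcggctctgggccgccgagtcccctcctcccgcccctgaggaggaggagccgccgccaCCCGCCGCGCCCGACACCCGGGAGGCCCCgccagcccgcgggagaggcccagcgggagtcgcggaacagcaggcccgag
ITGA5 (chr12:54419217-54419516, minus strand): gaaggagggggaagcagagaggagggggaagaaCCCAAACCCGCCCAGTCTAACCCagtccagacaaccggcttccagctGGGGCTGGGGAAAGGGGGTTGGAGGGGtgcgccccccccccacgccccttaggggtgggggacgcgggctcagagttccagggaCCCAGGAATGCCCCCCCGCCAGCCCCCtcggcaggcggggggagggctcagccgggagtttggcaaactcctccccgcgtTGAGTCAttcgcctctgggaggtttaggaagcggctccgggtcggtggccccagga

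Windows were found for 7 of the 10 subunits, 12 windows in all, since some genes have several starts. ITGA3, ITGB3 and ITGB4 were not matched. The guanine-run pattern was searched on both strands and stood in 6 of the 12 windows, in ITGA2, ITGA5, ITGA6, ITGB1 and ITGB5. It stood in 24.9% of 35116 windows of the same length. No window of ITGAV or ITGB8 held it. Subunits that fell (ITGA2, ITGA6, ITGB1) and subunits that did not pass (ITGA5, ITGB5) both carried it. ITGA2 held 2 such stretches, both on the gene's own strand, and the ITGA6 window shown held 1. ITGA5 held 3, with 2 of them on the other strand. TGANTCA, the binding letters of AP-1, a factor that APE1 is known to act on through its redox function, stood in the window of ITGA5 alone among the 7, and in 7.71% of all windows. A match describes the letters only, and the ChIP samples of the series were not analysed here.

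**Figure D1:**
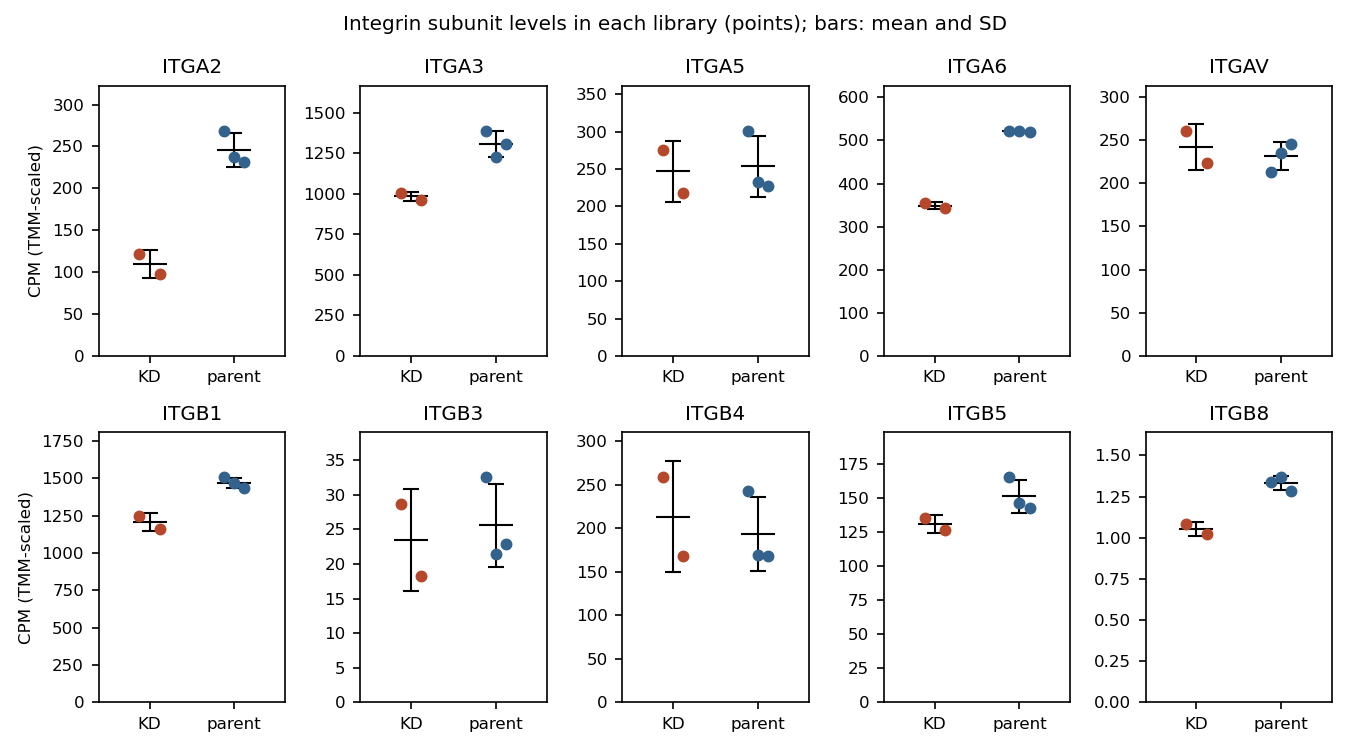
Level of each integrin subunit in CPM on TMM-scaled libraries, with each point a library and bars for mean and SD (n = 2 for KD, n = 3 for parent), each axis starting at 0. KD and parent points are apart for ITGA2, ITGA3, ITGA6, ITGB1, ITGB5 and ITGB8 and mixed for ITGA5, ITGAV, ITGB3 and ITGB4.

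Among the 10 subunits, ITGA2 had the largest fold change. ITGA2 (ENSG00000164171), the alpha chain of a receptor for fibrillar collagen, stood at 121 and 97.4 CPM in KD replicates 1 and 2, and at 268, 237 and 231 CPM in parent replicates 1, 2 and 3. Both KD libraries lay below each parent library, by more than the spread within either group. The level fell from 245 ± 20.1 (SD, n = 3) to 109 ± 17.0 CPM (SD, n = 2), a log2 fold change of -1.17 ± 0.109 (SE, edgeR adjusted p = 0.000662). ITGA2 was thus 2.24-fold lower in KD, with a 95% interval of -1.42 to -0.91 on the log2 scale.

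The laminin-binding chains fell by less, and with little spread between libraries. ITGA6 (ENSG00000091409), the alpha chain shared by a laminin receptor and the hemidesmosome receptor, had 354 and 343 CPM in KD and 522, 521 and 520 CPM in parent. The SD over the 3 parent libraries was 0.687 CPM, and the groups did not overlap. The log2 fold change was -0.58 ± 0.0441 (SE, edgeR adjusted p = 0.000301). ITGA3 (ENSG00000005884), the alpha chain of the other main laminin receptor, had 1006 and 965 CPM in KD and 1389, 1228 and 1308 CPM in parent. Again both KD libraries were below the lowest parent library. ITGA3 fell from 1308 ± 80.5 to 986 ± 29.0 CPM, a log2 fold change of -0.41 ± 0.0643 (SE, edgeR adjusted p = 0.00554).

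ITGA5 (ENSG00000161638), the alpha chain of the fibronectin receptor, did not follow them. It had 276 and 218 CPM in KD and 301, 232 and 227 CPM in parent. The groups overlapped, and the library with the lowest level and the one with the highest were KD replicate 2 and parent replicate 1. The log2 fold change was -0.04, with a 95% interval of -0.39 to 0.31 (edgeR adjusted p = 0.888). The lower end of the interval is near the change of ITGA3, so an equal level is not shown.

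ITGB1 (ENSG00000150093), the beta chain common to these receptors, had 1250 and 1163 CPM in KD and 1506, 1469 and 1433 CPM in parent. The groups did not overlap, and the fall was the smallest of the 4 called. It went from 1469 ± 36.8 CPM in parent to 1207 ± 61.5 CPM in KD, with a log2 fold change of -0.28 ± 0.0542 (SE, edgeR adjusted p = 0.0118). ITGB1 shares sequence with the pseudogene ITGB1P1, which carried 2056 to 2846 counts in each library, so the count of ITGB1 is uncertain. ITGB1P1 had a log2 fold change of -0.24 (edgeR adjusted p = 0.0139). With its counts added to those of ITGB1, a setting chosen after seeing the data, the value for ITGB1 was -0.28 (adjusted p = 0.0121, within 1.65e-06 to 0.0477 over all alternatives).

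ITGAV and its beta partners did not pass the test. ITGAV (ENSG00000138448), the alpha chain of the vitronectin receptors, had 260 and 223 CPM in KD and 213, 235 and 245 CPM in parent. The groups overlapped, and the log2 fold change was 0.07, with a 95% interval of -0.14 to 0.27 (edgeR adjusted p = 0.636). ITGB5 (ENSG00000082781), which binds vitronectin together with ITGAV, had 136 and 127 CPM in KD and 165, 146 and 143 CPM in parent. Its groups did not overlap, but the log2 fold change of -0.21 ± 0.0756 (SE) missed the threshold after adjustment (edgeR adjusted p = 0.101). ITGB3 (ENSG00000259207), the beta chain of the best known vitronectin receptor, had 28.6 and 18.3 CPM in KD and 32.5, 21.4 and 23.0 CPM in parent. These groups overlapped, and the 95% interval of -0.69 to 0.43 was wide (log2 fold change -0.13, edgeR adjusted p = 0.744).

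ITGB8 (ENSG00000105855), which with ITGAV activates latent TGF-beta, was near the limit of detection. It had 16 and 16 counts in KD and 21, 20 and 23 counts in parent, or 1.03 to 1.08 CPM against 1.29 to 1.37 CPM. The groups did not overlap. At this depth the log2 fold change of -0.33 had a 95% interval of -0.93 to 0.27 (edgeR adjusted p = 0.458), so a difference was not detectable. ITGB4 (ENSG00000132470), the hemidesmosome chain with a long cytoplasmic tail, had 259 and 168 CPM in KD and 243, 169 and 168 CPM in parent. Each group held 1 library well above the rest, and the log2 fold change was 0.14, with a 95% interval of -0.38 to 0.66 (edgeR adjusted p = 0.696).

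In all, 6 of the 10 subunits had groups that did not overlap, against 51.4% of all tested genes. All 6 had the KD pair below the lowest parent library, which held for 26.1% of tested genes, and 0 had it above the highest, which held for 25.3%. The authors' deposited table gave the same signs for the 10, with adjusted p = 1.54e-24, 6.02e-35, 1.43e-09 and 9.13e-08 for ITGA2, ITGA6, ITGA3 and ITGB1. For the other 6 it gave adjusted p from 0.0995 (ITGB5) to 0.963 (ITGA5). It rests on the same 5 libraries.

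**Figure D2:**
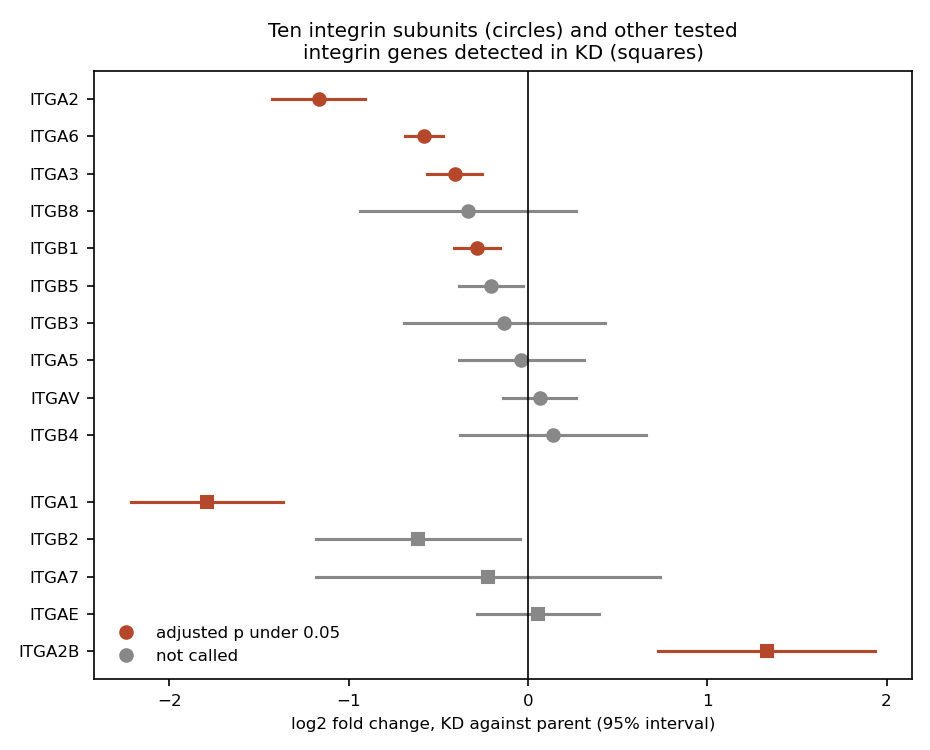
Log2 fold change of KD against parent with its unadjusted 95% interval for the 10 subunits (circles) and for 5 other integrin genes detected in KD (squares). Coloured points passed the edgeR test at an adjusted p of 0.05: ITGA2, ITGA6, ITGA3 and ITGB1 to the left of 0, with ITGA1 to the left and ITGA2B to the right among the squares.

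The libraries of a group differed more for some subunits than for others. ITGB3 and ITGB4 had within-group SDs of 0.37 and 0.35 on the log2 scale, and ITGA5 had 0.23, against a median of 0.08 over genes with at least 20 CPM. ITGA6 (0.02), ITGB8 (0.03) and ITGB1 (0.05) had the lowest SDs of the 10. The value for ITGB8 cannot be read like the others or set against that median, since its libraries held only 16 to 23 counts. A value of 0.5 was added to CPM before the log, which narrows the spread of so low a gene. The edgeR SE of its log2 fold change was 0.253. For ITGB4 the KD libraries differed 1.54-fold and the parent libraries 1.44-fold, and for ITGB3 1.57-fold and 1.52-fold. In both groups the library numbered 1 was the high one for ITGB3, ITGB4 and ITGA5. All 10 subunits were higher in KD replicate 1 than in KD replicate 2, where 49.9% of all tested genes were, and 8 of 10 were highest in parent replicate 1 of the parent libraries, where 39.3% of all tested genes were. What sets replicate 1 apart was not tested.

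**Figure D3:**
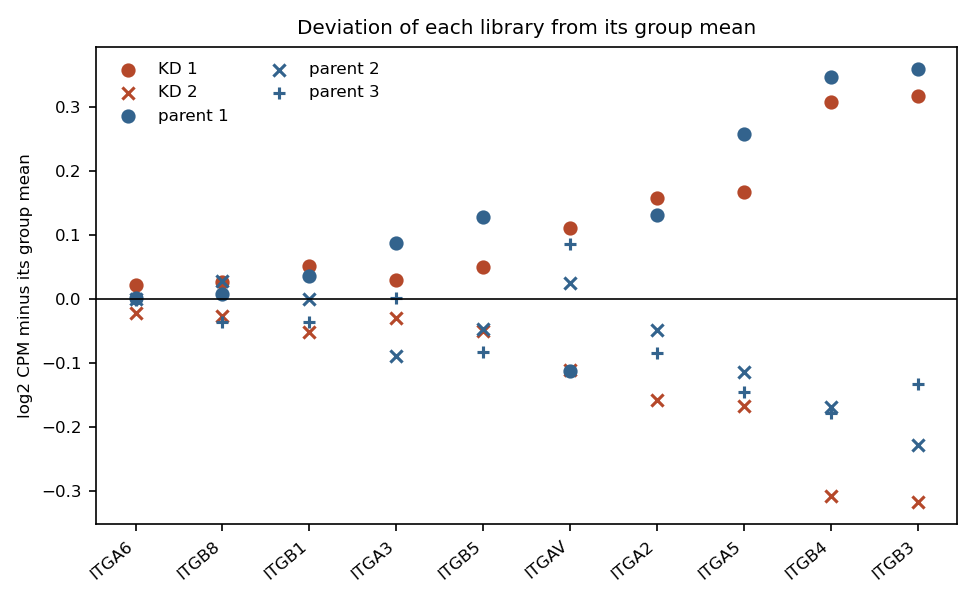
Log2 CPM of each library minus the mean of its group, for the 10 subunits ordered by their within-group SD. Replicate 1 of KD and of parent (filled circles) lie above 0 for ITGB3, ITGB4, ITGA5 and ITGA2, and all libraries lie close to 0 for ITGA6.

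Since subunits act in alpha and beta combinations, the count of each alpha chain was divided by that of a partner beta chain within each library, a ratio that does not depend on scaling between libraries. In 7 of 9 combinations the KD and parent ratios did not overlap. For single genes by CPM the share was 51.4%, and no such share was computed for ratios of other genes. The combinations share ITGB1, ITGAV or ITGA6, so the 7 are not separate results. With 10 ways to split the 5 libraries the exact two-sided permutation test cannot give a p below 0.2, which these 7 reached (0.257 adjusted over the 9). That test therefore cannot pass 0.05 with these libraries, and no model was fitted to the ratios. Ratios are read as changes between groups only, since counts of genes of unequal length do not show which chain is in excess.

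The log2 ratio of ITGA2 to ITGB1 was -3.36 and -3.58 in KD and -2.49, -2.63 and -2.63 in parent, lower by 0.89 on the log2 scale in KD. The ITGA6 to ITGB1 ratio was -1.82 and -1.76 in KD and -1.53, -1.50 and -1.46 in parent, a difference of -0.29. The ITGA3 to ITGB1 ratio differed by -0.12, from -0.31 and -0.27 in KD to -0.12, -0.26 and -0.13 in parent. In each of these 3 the alpha chain was lower relative to ITGB1 in both KD libraries, and for ITGA3 the gap to the nearest parent library was small.

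Relative to ITGB1, the RGD-binding alpha chains had positive differences. ITGAV and ITGA5 themselves did not pass (log2 fold change 0.07 and -0.04), whereas ITGB1 fell (-0.28), so these differences come mostly from ITGB1. The ratios to ITGB5 and ITGB8 likewise divide by chains with log2 fold changes of -0.21 and -0.33, neither of which passed. The ITGAV to ITGB1 ratio was -2.26 and -2.38 in KD and -2.82, -2.65 and -2.55 in parent, a difference of 0.35 without overlap. The ITGA5 to ITGB1 ratio had a difference of 0.25, and its groups overlapped (exact permutation p = 0.4). That difference was 0.13 without KD replicate 1, the lowest value on leaving out 1 library, and 0.37 without KD replicate 2, the highest. Among the beta chains themselves, ITGAV to ITGB5 was 0.94 and 0.82 in KD and 0.37, 0.68 and 0.78 in parent, a difference of 0.27, which was 0.15 without parent replicate 1. ITGAV to ITGB8 had a difference of 0.39, which rests on the low counts of ITGB8. ITGAV to ITGB3 overlapped, with a difference of 0.20 (exact permutation p = 0.8).

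For the hemidesmosome receptor, the log2 ratio of ITGA6 to ITGB4 was 0.45 and 1.03 in KD and 1.10, 1.62 and 1.63 in parent, a difference of -0.71 without overlap. KD replicate 2 and parent replicate 1 were close to each other, and ITGB4 was high in both libraries numbered 1. Leaving out 1 library at a time gave differences from -0.997 (without KD replicate 2) to -0.42 (without KD replicate 1).

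**Figure D4:**
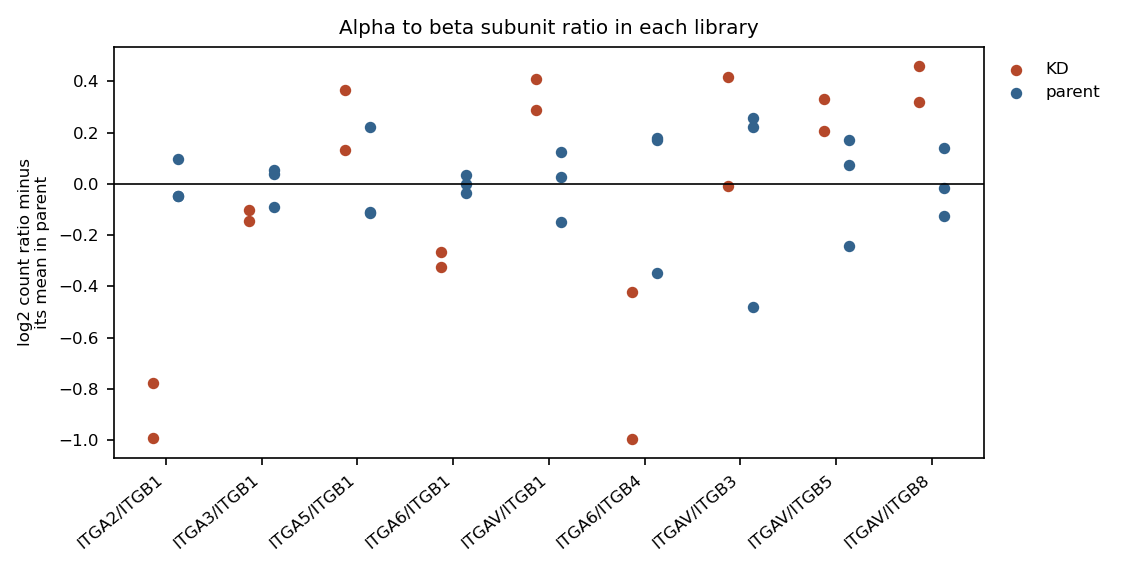
Log2 ratio of alpha to beta subunit counts in each library, minus the mean of the 3 parent libraries, for 9 combinations. ITGA2, ITGA3 and ITGA6 relative to ITGB1, and ITGA6 relative to ITGB4, lie below the parent points in both KD libraries, and ITGAV relative to ITGB1, ITGB5 and ITGB8 lies above them.

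Of the 17 other symbols listed with the integrin genes, 6 were tested and 11 had too few counts, among them the leukocyte chains ITGAL, ITGAM and ITGAX and the epithelial chain ITGB6, at 0 to 7 counts in each library. Of the 6 tested, 2 fell, 1 rose and 3 did not pass, and their median was -0.42 on the log2 scale. Among all tested genes 21.5% were called, against 50% of these 6. That 50% includes ITGBL1, which passed the filter on low counts through the parent libraries alone. It also includes ITGA2B, whose call was lost when either KD library was left out. ITGA1 (ENSG00000213949), the alpha chain of another collagen receptor with ITGB1, had 21.3 and 14.8 CPM in KD and 72.0, 59.0 and 55.6 CPM in parent. Its log2 fold change of -1.79 ± 0.178 (SE, edgeR adjusted p = 0.000882) exceeded that of ITGA2, so both collagen-binding alpha chains tested were lower in KD.

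ITGA2B, the platelet fibrinogen receptor chain, was higher, with 35 and 35 counts in KD against 17, 11 and 16 in parent (edgeR log2 fold change 1.33, adjusted p = 0.0118). That call was lost when either KD library was left out (adjusted p = 0.0786 without KD replicate 1, 0.0611 without the other), within 0.00998 to 0.0786 over all alternatives, and the authors' deposited table gave it an adjusted p of 0.112. ITGBL1, an integrin beta-like protein that is no receptor chain, was at 0 in both KD libraries and at 10, 10 and 12 counts in parent. Against 3 counts over the KD group it was at least 6.72-fold lower (edgeR adjusted p = 0.00623). It passed the filter on low counts through the parent libraries alone, and was not tested under the stricter filter or without parent replicate 2 or 3. The leukocyte chain ITGB2 had 2.44 ± 0.281 CPM in KD and 3.74 ± 0.825 CPM in parent (adjusted p = 0.120 by edgeR). It lies against an antisense gene, and the use of strand in counting is not given. ITGAE and ITGA7 stood at 12.7 ± 0.579 and 1.03 ± 0.459 CPM in KD against 12.2 ± 1.82 and 1.21 ± 0.338 CPM in parent, with adjusted p = 0.825 and 0.747 in edgeR.

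Integrin ligands moved in both directions. Of 33 tested, 12 rose, 7 fell and 14 did not pass, and their median was 0.18 on the log2 scale. The share called was 57.6%, against 21.5% of all tested genes (9.15% higher and 12.4% lower in KD). Fibronectin, FN1, had 1639 and 1355 CPM in KD and 813, 581 and 611 CPM in parent, a log2 fold change of 1.16 ± 0.151 (SE, edgeR adjusted p = 0.00254). Vitronectin, VTN, had 353 and 260 CPM in KD and 53.5, 40.9 and 34.5 CPM in parent (2.84 ± 0.192, adjusted p = 0.000205), and EDIL3, a secreted ligand of ITGAV receptors, was 1.90-fold higher.

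VCAM1, a membrane ligand of leukocyte integrins, was 4.34-fold higher, and the basement membrane collagen COL4A1 was 1.52-fold higher. The matricellular proteins CTGF, CYR61 and NOV, which bind several integrins, were 4.73-fold, 2.74-fold and 8.02-fold lower in KD. TNC, the matrix protein tenascin C, was 1.96-fold lower and the collagen chain COL6A3 2.45-fold lower. LAMB3, a chain of the epithelial laminin that is the ligand of ITGA3 and of ITGA6 with ITGB4, was named after its value was seen: it fell from 537 ± 73.5 to 261 ± 45.1 CPM (edgeR adjusted p = 0.00297). LAMA3, another chain of that laminin, had a log2 fold change of 0.03 (edgeR adjusted p = 0.774).

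Among the most abundant ligands, thrombospondin 1, THBS1, was 1.39-fold lower and COL5A1 1.48-fold higher, and both calls were close to the threshold. That of THBS1 was lost without KD replicate 1 (adjusted p = 0.169), parent replicate 2 (0.0866) and also without parent replicate 3 (0.0827), or when low counts were left unfiltered (0.0757), within 0.0226 to 0.169. That of COL5A1 was lost without KD replicate 1 (0.259), parent replicate 2 (0.141) and also without parent replicate 3 (0.109) and, with all libraries, under DESeq2 size factors (0.0503), the DESeq2 test (0.0899) and no filter on low counts (0.0844), within 0.00173 to 0.259 over all alternatives.

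Of 46 tested proteins that activate integrins or build focal adhesions on their cytoplasmic side, 6 rose, 9 fell and 31 did not pass. Their median was -0.02 on the log2 scale. The share called was 32.6%, against 21.5% of all tested genes. The focal adhesion scaffold paxillin, PXN, was 1.48-fold lower (edgeR adjusted p = 0.000887) and the hematopoietic kindlin FERMT3 2.29-fold lower from 9.49 ± 1.08 CPM. The tensins, which bind beta chain tails, split: TNS1 had 7 and 0 counts in KD against 176, 152 and 159 in parent, TNS4 was 2.09-fold lower, and TNS3 was higher at 329 ± 15.9 against 220 ± 17.4 CPM. The actin linker ACTN4 was 1.14-fold lower, while FLNA, the most abundant of the list, stood at 3996 ± 7.82 CPM in KD and 4062 ± 245 CPM in parent (adjusted p = 0.831 by edgeR). Talin 2, TLN2, was 1.32-fold higher, the focal adhesion kinase relative PTK2B 1.49-fold higher, the talin recruiter APBB1IP 1.36-fold higher and the integrin inhibitor SHARPIN 1.26-fold higher.

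Many of these calls were small and close to the threshold. The count of 15 called genes was 5 with KD replicate 1 left out, 7 with KD replicate 2 left out and 6 with parent replicate 2 left out. PTK2B and TLN2 lost their calls with KD replicate 1 left out (adjusted p = 0.0851 and 0.0938, the upper ends of their ranges, from 0.00013 and 0.00244) and with parent replicate 2 left out (0.0520 and 0.0548). APBB1IP lost its call without KD replicate 1 (0.179), parent replicate 2 (0.105) and also without parent replicate 3 (0.0768), or when low counts were left unfiltered (0.0554), within 0.00824 to 0.179. TNS4 lost it without KD replicate 1 (0.0562), KD replicate 2 (0.148) and also without parent replicate 2 (0.0790), within 0.00945 to 0.148. SHARPIN lost it without KD replicate 1 (0.113), KD replicate 2 (0.142), parent replicate 2 (0.112) and also without parent replicate 3 (0.0865), or when low counts were left unfiltered (0.0575), within 0.0108 to 0.142. ACTN4 lost it without KD replicate 1 (0.131), KD replicate 2 (0.0974), parent replicate 1 (0.0711), parent replicate 2 (0.0536) and also without parent replicate 3 (0.125), or when scaled by library totals (0.0512), within 0.00142 to 0.131. The calls of PXN, FERMT3 and TNS3 held in each of the 12 alternatives. That of TNS1 held too, but TNS1 passed the filter on low counts through the parent libraries alone. Its log2 fold change ran from -10.3 to -4.40 over the alternatives, so its size is not well set.

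Of 18 membrane and hemidesmosome partners, all tested, 1 rose, 5 fell and 12 did not pass, and their median was -0.12 on the log2 scale. Calls made up 33.3% of this list, against 21.5% of all tested genes (9.15% higher and 12.4% lower in KD). CD82, a tetraspanin that associates with integrins, had 106 and 93.3 CPM in KD and 206, 196 and 187 CPM in parent (1.97-fold lower, edgeR adjusted p = 0.000275). CD47, the integrin-associated protein, was 1.57-fold lower and the urokinase receptor PLAUR, which binds integrins laterally, 1.35-fold lower. Of the hemidesmosome proteins, DST, which includes the plaque protein BP230, was 1.49-fold lower at 400 ± 5.38 against 596 ± 54.8 CPM, and COL17A1, a transmembrane collagen, was 1.81-fold lower at 2.59 ± 0.939 against 4.68 ± 0.226 CPM. Plectin, PLEC, which links ITGB4 to keratin filaments, stood at 2310 ± 98.0 and 2544 ± 202 CPM (edgeR adjusted p = 0.245). The matrix protease inducer BSG stood at 609 ± 17.4 and 616 ± 27.5 CPM (adjusted p = 0.877), and the tetraspanin CD81 was 1.15-fold higher.

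The call of COL17A1 was lost without KD replicate 2 (adjusted p = 0.173), parent replicate 1 (0.0667), parent replicate 2 (0.127) and also without parent replicate 3 (0.0925) and, with all libraries, under the DESeq2 test (0.0732) and no filter on low counts (0.0754), within 0.0223 to 0.173. That of CD81 was lost without KD replicate 1 (0.231), KD replicate 2 (0.100), parent replicate 2 (0.115) and also without parent replicate 3 (0.0891), or when low counts were left unfiltered (0.0726), within 0.0146 to 0.231. Those of CD82, CD47, PLAUR and DST held in each of the 12 alternatives.

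**Figure D5:**
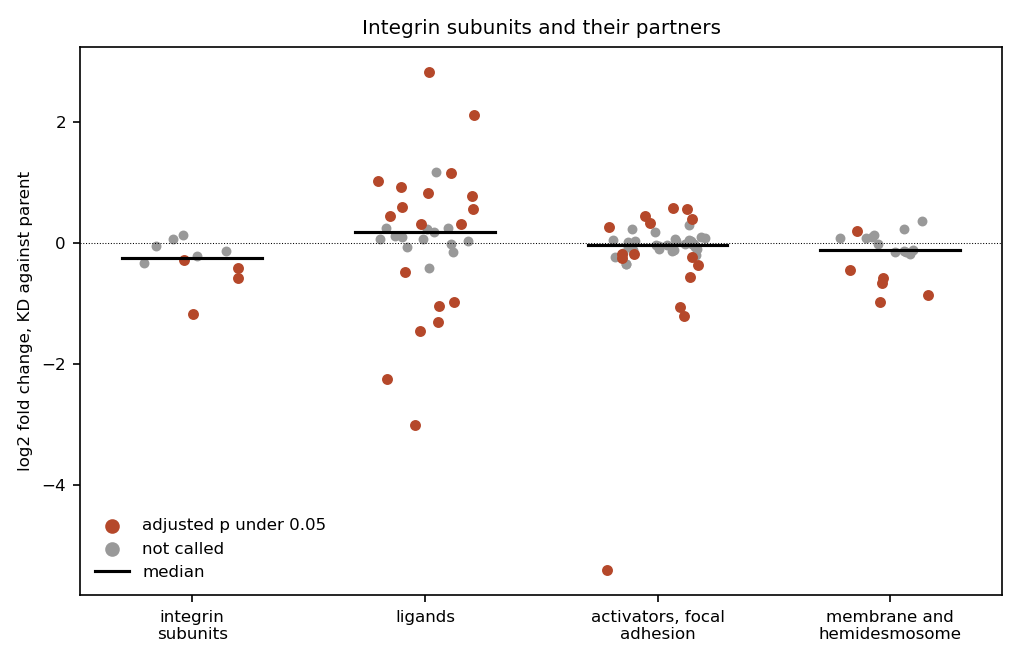
Log2 fold change of KD against parent for each tested gene of 4 lists, with the median of each list as a bar and coloured points for genes at an adjusted p under 0.05. The called integrin subunits lie below 0, ligands spread to both sides, and most focal adhesion genes lie close to 0, with TNS1 far below.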

How the data were processed

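RNA-seq was made from 5 libraries of MDA-MB-231 cells, 2 labelled KD and 3 labelled parent, grouped by sample title. The labels do not say whether replicates were separate cultures, and p-values therefore cover the spread among these 5 libraries, which may be technical. The authors deposited expected counts per gene, as whole numbers. STAR, DESeq2 and hg19 stand in the submitters' processing notes, without versions. No source used here gives the counting tool, the annotation or whether strand was used. The authors' deposited comparison holds, per the file headers, a mean signal of normalised counts, log2 fold changes, a test score and p-values. The transcript table and the 2 ChIP samples were not analysed here.

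Genes were filtered with filterByExpr (minimum count 10, minimum total 15), leaving 16198, scaled with TMM and tested by edgeR 4.0.16 (R 4.3.3) with 3 residual degrees of freedom. Levels are not compared between genes, as no gene lengths were used. Simulated counts for KD against parent (16198 genes, 200 changed) served as a check. There 41.8% of 1.5-fold, 83.6% of 2-fold and 95.5% of 4-fold changes were recovered, and 8.7% of calls were false. The changed genes were drawn from those above a minimum total count, and were far fewer than the 3485 called in the data. These shares therefore do not carry over directly to the real comparison. Promoters came from RefSeq, GRCh38.p14. All 10 tested member identifiers matched the name table.

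The subunits and lists were chosen with earlier results of these data known. Named genes are all members and tested integrin genes, and, of each other list, the 5 with the smallest adjusted p in each direction and the 3 most abundant. Some items that the rule or the marker lists name are not reported here. Ratios used 0.5 added counts. Alternatives were other scalings, DESeq2 1.42.0, other filters, a replicate block and leaving out each library.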

Additional observations from a re-analysis of the deposited data

How the results depend on the processing

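ITGA2, ITGA3, ITGA6 and ITGB1 kept their direction and call in each of 12 alternatives, with ITGB1 closest to the threshold (adjusted p up to 0.0477) and ITGA3 next (up to 0.0336). Where 1 KD library was left out, the spread came from the parent libraries alone, and the lone KD library was assumed to vary like them. Fold changes that changed sign were called in no alternative. Leaving out 1 library gave log2 fold changes of -0.22 to 0.12 for ITGA5, -0.0521 to 0.17 for ITGAV, -0.49 to 0.16 for ITGB3, -0.20 to 0.42 for ITGB4, -0.76 to 0.18 for ITGA7, -0.0714 to 0.13 for ITGAE, -0.073 to 0.00864 for FLNA and -0.0469 to 0.0139 for BSG, and a difference of -0.0359 to 0.42 for the ITGAV to ITGB3 ratio. The sign turned without KD replicate 1 for ITGAV and ITGB4, without KD replicate 2 for ITGA5, ITGB3, ITGA7, BSG and the ratio, without parent replicate 1 for ITGA5, ITGB3, ITGAE, BSG and the ratio, and without parent replicate 3 for FLNA. Library totals alone gave BSG 0.00352. The cause was not tested. The same fits called 1823 to 3383 genes in all, 4 subunits lower each time and 5 to 11 focal adhesion genes. All genes called were 1823 with KD replicate 1 left out, 2076 with KD replicate 2 left out and 2029 with parent replicate 2 left out, with fewer samples in each fit. ITGB8 was not tested under the stricter filter. Its 16 to 23 counts limit what can be seen.

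The groups share replicate numbers 1 and 2, but no label says that a number marks a shared source. Deviations of same-numbered libraries correlated at 0.116 for number 1 and -0.00303 for number 2. With 2 KD libraries the deviations of KD replicate 1 mirror those of KD replicate 2, so these values cannot decide whether the numbers mark pairs. As no label gives a pairing, the numbers were not taken as pairs. A replicate block gave 3940 called genes, 5 subunits lower (ITGB5 joined, -0.25, adjusted p = 0.0120, within 0.0120 to 0.376), 11 called membrane and hemidesmosome partners in place of 6, and FLNA at 0.0107. SHARPIN, ACTN4 and COL17A1 lost their calls under it (adjusted p = 0.0546, 0.0861 and 0.0719).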

Other observations

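ITGA1 and ITGA2, the collagen-binding alpha chains that fell, lie close together in the RefSeq annotation. Of the tested protein-coding genes, PELO has its start between the starts of ITGA1 and ITGA2. Genes were ordered by start alone, so whether neighbours overlap was not examined. A neighbour here is the nearest by start among tested protein-coding genes whose symbols matched the annotation. Other genes may lie between, and distances to neighbours were not examined. PELO stood at 42.4 ± 1.33 CPM in KD and 45.6 ± 1.94 CPM in parent (adjusted p = 0.316 by edgeR), and MOCS2, on the far side of ITGA2, at 43.2 ± 0.188 and 51.1 ± 4.72 CPM (adjusted p = 0.102). Beside ITGB1 lies NRP1, the semaphorin and VEGF co-receptor neuropilin 1, which fell from 597 ± 21.1 to 311 ± 0.825 CPM (log2 fold change -0.94, edgeR adjusted p = 8.18e-05). Beside ITGB8 lies HDAC9, a histone deacetylase gene, which fell from 46.6 ± 2.70 to 23.7 ± 2.43 CPM (log2 fold change -0.98, edgeR adjusted p = 0.000626). Other neighbours that passed the test were CCDC7 beside ITGB1, SP4 beside ITGB8 and FAM171B beside ITGAV (log2 fold changes -1.08, -0.61 and -0.28), and PARP8 beside ITGA1 (-0.80). Those with higher levels in KD were DLX3 and PDK2 beside ITGA3 (0.97 and 0.49), which itself fell, and GALK1 beside ITGB4 (0.39). The remaining neighbours, ZNF385A, ITGA7, DLX1, PDK1, ZC3H15, CDC27, EFCAB13, SAP30BP, UMPS and HEG1, did not pass. Over all tested genes 21.5% were called. All neighbours were looked up after the values of the subunits were seen.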
